A study of Mus musculus with 6 samples.

Results

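The genes described here are 10 targets of the oxygen-sensing pathway that act outside glycolysis, namely Car9, Car12, Adm, Ndrg1, Ankrd37, Ddit4, Bnip3, Bnip3l, Higd1a and Ero1l. They were listed by function (control of pH, signalling, mTOR inhibition, mitophagy and related roles), with earlier results of these data known. They make up 10 of the 54356 genes in the files and 10 of the 16048 genes with enough reads to be tested. RNA was sequenced from C57BL/6 mouse hearts at E9.5, when the looped heart tube beats and forms its chambers, with 3 libraries from littermate controls and 3 from FlncgKO embryos. FlncgKO embryos carried Flnc fl/fl alleles recombined by Sox2-Cre, which is active in the epiblast, so filamin C, an actin crosslinker of muscle, was lost from the whole embryo and not from cardiomyocytes alone. The labels give the comparison group only as littermate controls, with no allele or Cre status. The labels name whole heart and the study's methods name embryonic hearts or isolated ventricles, and the number of hearts in a library is not given, so p-values measure the spread between these libraries.

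When oxygen is scarce, the prolyl hydroxylases of the Egln family stop marking HIF alpha subunits for destruction by the Vhl complex, and HIF dimers bind short hypoxia response elements near their targets. The targets fall into a glycolytic arm and into arms that buffer acid, open and grow vessels, restrain protein synthesis, remove mitochondria and keep oxidative folding going in the endoplasmic reticulum. The embryonic heart forms in low oxygen, and HIF signalling is needed for its normal development.

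The sequence before the start of a gene shows where HIF could bind, so the 250 bases before the RefSeq start were read for the 8 members that matched a RefSeq window (GRCm38.p6). The core of the hypoxia response element was searched as ACGTG or GCGTG on both strands, and matches that share a base were counted as 1 site (the palindrome CACGTG, for example, holds a match on each strand). At least 1 site was present in 7 of the 8 windows (87.5%), against 38.6% of 32851 windows of the same length. At least 3 sites were present in 3 of the 8 (37.5%), against 4.65% of all windows. The members were listed as targets of this pathway, and the windows compared were not matched for base content, so these shares are a description only. A match is a description of the letters and not evidence of binding. The windows of Bnip3, with the most sites, of Ankrd37, with 3, and of Adm, with 2, are shown whole, 5′ to 3′ on the strand of the gene and with the matches in capitals. They lie at chr7:138909507-138909756 (minus strand), chr8:45999851-46000100 (minus strand) and chr7:110627407-110627656 (plus strand).
Bnip3: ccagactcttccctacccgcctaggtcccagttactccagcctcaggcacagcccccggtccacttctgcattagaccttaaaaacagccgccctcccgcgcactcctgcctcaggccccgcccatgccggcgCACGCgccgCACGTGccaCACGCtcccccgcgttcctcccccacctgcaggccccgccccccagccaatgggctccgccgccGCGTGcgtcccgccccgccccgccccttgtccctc
Ankrd37: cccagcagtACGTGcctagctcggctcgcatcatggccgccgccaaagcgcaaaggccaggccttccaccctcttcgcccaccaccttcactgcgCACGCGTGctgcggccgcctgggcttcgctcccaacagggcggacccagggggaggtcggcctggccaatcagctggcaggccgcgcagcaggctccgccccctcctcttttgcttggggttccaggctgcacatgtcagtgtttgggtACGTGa
Adm: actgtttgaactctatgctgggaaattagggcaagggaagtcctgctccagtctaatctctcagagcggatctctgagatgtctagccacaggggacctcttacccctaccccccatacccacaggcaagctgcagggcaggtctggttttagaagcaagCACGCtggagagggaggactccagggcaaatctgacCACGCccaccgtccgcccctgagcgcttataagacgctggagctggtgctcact

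Bnip3 held 4 sites, 3 of them close together around a CACGTG palindrome and the other nearer the start. In Ankrd37 the 3 sites were spread over the window, with ACGTG at either end. The remaining windows with a site are shown by the bases around 1 match each, because more of each window lies in an annotated exon. They come from Car9 (chr4:43506998-43507022, plus strand, its only site), Ddit4 (chr10:59951943-59951967, minus strand, 1 of 2), Higd1a (chr9:121857852-121857876, minus strand, 1 site made of overlapping matches) and Ero1l (chr14:45318621-45318645, minus strand, 1 of 3).
Car9: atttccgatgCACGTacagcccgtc
Ddit4: aacgttgcgaACGTGcgcccggtgc
Higd1a: ggtctagcctGCGTGcgtggcgttc
Ero1l: cgcgccgctgCACGTccgcagggga

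The window of Car12 (chr9:66713436-66713685, plus strand) held none of these letters, which says nothing about factors that bind elsewhere. By the GENCODE annotation, exons cover 60, 64, 69 and 250 of the 250 bases in the windows of Car9, Ddit4, Ero1l and Higd1a. It sets some starts further upstream than RefSeq. The window of Ankrd37 and the matches shown for Car9, Higd1a and Ero1l thus lie within the annotated genes. Of the 8 genes, Car12 with 0 sites had the smallest log2 fold change in RNA (0.40) and Car9 with 1 site the largest (3.16). Higd1a with 1 had 0.73, Adm and Ddit4 with 2 had 0.78 and 1.80, Ankrd37 and Ero1l with 3 had 1.48 and 1.20, and Bnip3 with 4 had 1.23. These changes are described below, and a relation to the number of sites was not tested.

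Libraries held 19208859 to 23123255 estimated counts. Levels are given as CPM, a gene's count scaled to the size of its library, with the TMM factor to correct for RNA composition. Levels of different genes are compared in TPM, the authors' value corrected for transcript length. Flnc, the targeted gene, measured 844, 623 and 746 CPM in controls and 127, 111 and 240 CPM in FlncgKO hearts. It was lower in every library labelled FlncgKO, with a log2 fold change of -2.21. The adjusted p of Flnc was 0.0656 by edgeR's quasi-likelihood test, which thus did not call the targeted gene at 0.05, and 9.9e-07 by DESeq2. All 13 cardiomyocyte markers were detected, with summed levels of 39626 to 44920 CPM in controls and 36140 to 42134 CPM in FlncgKO hearts. The 14 tested erythroid markers summed to between 3138 and 9103 CPM in controls, with control replicate 3 the highest, and between 7673 and 12612 CPM in FlncgKO hearts. The 9 platelet markers summed to 20.8 to 29.5 CPM in controls and 111 to 699 CPM in FlncgKO hearts, and no marker of either list that was tested was at 0 in every library. Of 6 tested leukocyte markers, 2 were called higher by edgeR's quasi-likelihood test, against 1.06% of all tested genes. In 4 the groups did not overlap, all higher, against 15.7% of all tested genes. The median log2 fold change was 1.78, and the list summed to 9.29 to 20.3 CPM in controls and 28.0 to 41.8 CPM in FlncgKO hearts. The 4 Y-linked genes summed to 117 to 140 CPM in controls and to 80.7, 3.88 and 4.28 CPM in FlncgKO replicates 1, 2 and 3. Xist, expressed in female cells, measured 290, 301 and 337 CPM in controls and 807, 1609 and 1290 CPM in FlncgKO hearts. Its log2 fold change was 2.00 (adjusted p = 0.0490 by edgeR's quasi-likelihood test). Sex and genotype thus overlap in part in these libraries, and the part of sex was not tested beyond a Y-linked covariate. In whole-heart RNA, more cells of a type and more RNA per cell cannot be told apart, for these markers or for the genes below.

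All 10 hypoxia targets had a higher mean in FlncgKO hearts, where 51.6% of all tested genes had a positive log2 fold change. Their median log2 fold change was 1.22, against 0.01 for all tested genes. In 8 of the 10, every FlncgKO library lay above every control library, a pattern shown in that direction by 15.7% of all tested genes. Car12 and Adm were the exceptions. Only Car9 passed an adjusted p of 0.05 with edgeR's quasi-likelihood test (1 of 10, against 1.06% of all genes higher and 0.249% lower), and none was called lower. The same 8 with no overlap had an unadjusted p under 0.05, against 13.3% of all genes in that direction and 8.84% in the other. DESeq2, the tool the authors used, run here on the same counts, called those 8 higher and none lower (background 6.22% higher and 2.27% lower). These shares of all genes are also the background for the lists below.

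**Figure D1:**
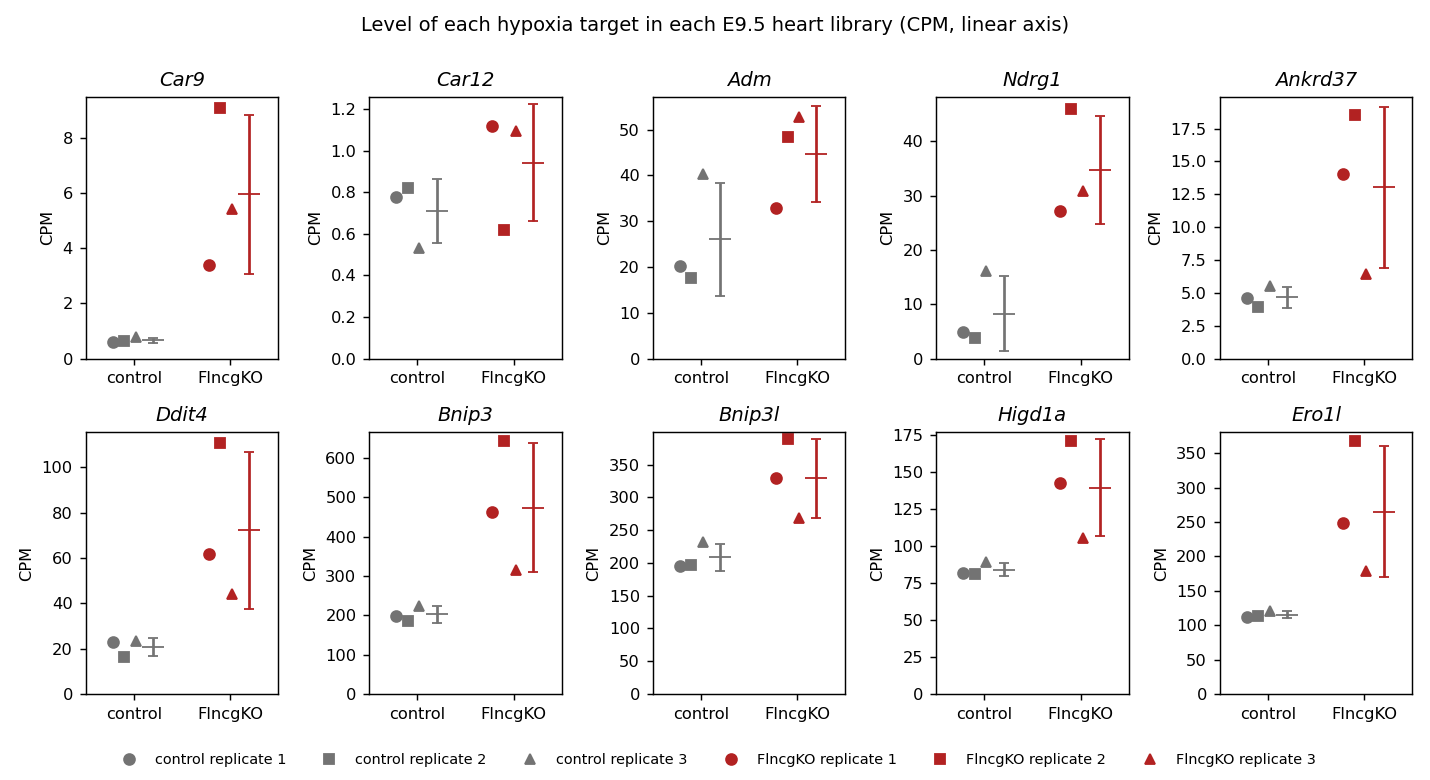
Level of each of the 10 hypoxia targets in CPM (linear axes starting at 0, one scale per gene) in the 3 control (grey) and 3 FlncgKO (red) libraries, with the mean and SD beside each group. FlncgKO and control libraries are separated in every panel except Car12 and Adm, and FlncgKO replicate 2 is the highest library in 8 panels.

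The control of pH is represented by a pair of membrane carbonic anhydrases, whose catalytic domains face outwards and turn carbon dioxide and water into bicarbonate and protons. Car9 (4:43506966-43513729, plus strand, GRCm38) was found at 0.595, 0.627 and 0.773 CPM in the controls (replicates 1, 2 and 3, the order used for all values) and at 3.40, 9.09 and 5.42 CPM in FlncgKO hearts. Every FlncgKO library was several times above the highest control, and the FlncgKO libraries differed widely among themselves. The mean rose from 0.665 ± 0.0949 to 5.97 ± 2.88 CPM (SD, n = 3 each), a log2 fold change of 3.16 (SE 0.39, adjusted p = 0.0321 by edgeR's quasi-likelihood test, n = 3 per group), rank 66 of 16048 by size. The reads behind this are few in controls, with estimated counts of 13, 13 and 16 against 76, 206 and 104 in FlncgKO hearts.

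Car9 aligned over 205 bases at 91.7% identity with Gm12454, which is annotated as an antisense gene. Gm12454 measured 2.66 to 2.93 CPM in controls, above Car9, and 2.76 to 4.37 CPM in FlncgKO hearts, and its groups overlapped. In controls, most of a sum of both genes is therefore Gm12454. The library kit marks strand, but when the counts of both genes were added together the call was lost, with a log2 fold change of 1.43 (adjusted p = 0.0536 by edgeR's quasi-likelihood test). The call for Car9 was also lost without control replicate 1, 2 or 3 (adjusted p = 0.197, 0.191 and 0.0590 in edgeR's quasi-likelihood test), where 1, 1 and 95 of all genes were called higher, and it was held without any 1 of the FlncgKO libraries. The log2 fold changes without those controls were 3.08, 3.12 and 3.28, about as large as with all libraries. DESeq2 called Car9 with all libraries (adjusted p = 1.3e-09) and in 6 of 6 fits that left out a library (adjusted p of at most 8.5e-06). With the Y-linked level as a covariate the log2 fold change was 2.21 (adjusted p = 0.149 by edgeR's quasi-likelihood test), and with the erythroid level it was 3.21 (adjusted p = 0.235 by the same edgeR test).

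Car12 (9:66713686-66766845, plus strand) did not follow Car9. It measured 0.778, 0.820 and 0.531 CPM in controls and 1.12, 0.618 and 1.095 CPM in FlncgKO hearts, and the groups overlapped, with FlncgKO replicate 2 below control replicates 1 and 2. The log2 fold change was 0.40 (SE 0.34, adjusted p = 0.532 by edgeR's quasi-likelihood test), on estimated counts of 11 to 25 per library. At this depth a change of this size could not be told from the spread between libraries.

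Per length, Car9 was above Car12 in every library, with TPM ratios of 2.37, 2.53 and 2.83 in controls and 4.88, 35.6 and 15.03 in FlncgKO hearts. The log2 TPM ratio was 2.42 higher in FlncgKO hearts and the groups did not overlap. The TPM of Car9 rests on few reads. In control replicates 1 and 2 its coding transcript ENSMUST00000030183 held 12 of 13 estimated counts but only 50.1% and 54.2% of the gene's TPM. In control replicate 3 it held 100%. In CPM, which is not corrected for length and so bears only on the difference between groups, the log2 ratio was 2.67 higher. The exact two-sided permutation test gave p = 0.1 on either scale, the smallest that 3 against 3 libraries allow.

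Among the other 17 tested genes of pH control, 1 was called higher and none lower by edgeR's quasi-likelihood test, and 2 higher and 1 lower by DESeq2, with a median log2 fold change of 0.02. Bsg, the chaperone that brings lactate transporters to the membrane, measured 431 to 452 CPM in controls and 603 to 748 CPM in FlncgKO hearts (log2 fold change 0.58, adjusted p = 0.0348 by edgeR's quasi-likelihood test). Slc16a3, a lactate exporter, gave a log2 fold change of 0.51 (adjusted p = 0.126 by edgeR's quasi-likelihood test, 0.0039 by DESeq2), and the cytosolic carbonic anhydrase Car3 one of -0.75 (adjusted p = 0.0946 by the same edgeR test, 0.017 by DESeq2).

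The signalling genes were Adm and Ndrg1. Adm (7:110627661-110629820, plus strand) encodes adrenomedullin, a peptide that dilates vessels and is needed for embryonic vascular development. It measured 20.3, 17.6 and 40.2 CPM in controls and 32.9, 48.4 and 52.8 CPM in FlncgKO hearts. Control replicate 3 stood at about the level of the FlncgKO libraries and above FlncgKO replicate 1, so the groups overlapped.

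The mean of Adm was 26.0 ± 12.4 CPM in controls and 44.7 ± 10.5 CPM in FlncgKO hearts (SD, n = 3 each), with a log2 fold change of 0.78 (SE 0.39, adjusted p = 0.318 by edgeR's quasi-likelihood test). Without control replicate 3 the log2 fold change was 1.24 (adjusted p = 0.0866 by edgeR's quasi-likelihood test, and 2.7e-06 by DESeq2). Control replicate 3 was also the control with the most erythroid RNA, and with the erythroid level as a covariate the log2 fold change of Adm was 0.17 (adjusted p = 0.791 by edgeR's quasi-likelihood test). The Y-linked level as a covariate gave Adm a log2 fold change of 0.25 (adjusted p = 0.951 by the same edgeR test).

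Ndrg1 (15:66929318-66969640, minus strand) is a cytoplasmic stress-responsive protein of the N-myc downstream-regulated family. It measured 4.85, 3.76 and 16.2 CPM in controls and 27.2, 46.0 and 30.8 CPM in FlncgKO hearts. All FlncgKO libraries were above all controls, but control replicate 3 was several times higher than the other controls, the widest control spread, relative to its mean, among the members whose groups did not overlap. The log2 fold change was 2.07 (SE 0.65, adjusted p = 0.167 by edgeR's quasi-likelihood test, 0.0342 by DESeq2).

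Without control replicate 3 the log2 fold change of Ndrg1 was 3.01 and it passed the threshold (adjusted p = 0.0389 by edgeR's quasi-likelihood test, with 0.577% of all genes called higher and 0.0911% lower). With the erythroid level as a covariate it was 1.38 (adjusted p = 0.372 by edgeR's quasi-likelihood test). By DESeq2 the call for Ndrg1 was held in 1 of 6 fits that left out a library, the one without control replicate 3.

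Relatives of these signalling genes had median log2 fold changes near 0. Of 10 tested genes of the adrenomedullin system none was called by edgeR's quasi-likelihood test and 1, Adm2, was higher by DESeq2, with a median log2 fold change of 0.02. Adm2, a related peptide, measured 0.386 to 0.595 CPM in controls and 2.37, 6.18 and 1.98 CPM in FlncgKO hearts (log2 fold change 2.79, adjusted p = 0.0501 by edgeR's quasi-likelihood test, 5.7e-05 by DESeq2). Ramp1, a partner of the shared receptor, gave a log2 fold change of 0.48 (adjusted p = 0.110 by edgeR's quasi-likelihood test). Of 5 tested genes of the Ndrg family and the kinases Sgk1 and Gsk3b, which phosphorylate Ndrg1, none was called by edgeR's quasi-likelihood test and 1 was higher by DESeq2. This was Ndrg2, with a log2 fold change of 0.53 (adjusted p = 0.0792 by edgeR's quasi-likelihood test, 0.00082 by DESeq2). Sgk1 shared the high value in control replicate 3, with 25.1, 20.1 and 45.0 CPM in controls and 43.6 to 55.7 CPM in FlncgKO hearts.

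Ankrd37 (8:45996902-46005707, minus strand) encodes a small ankyrin repeat protein that is a direct HIF target and whose function is little known. It measured 4.62, 3.91 and 5.51 CPM in controls and 14.1, 18.6 and 6.41 CPM in FlncgKO hearts. FlncgKO replicate 3 lay just above the highest control and the other FlncgKO libraries well above it. The log2 fold change was 1.48 (SE 0.39, adjusted p = 0.108 by edgeR's quasi-likelihood test, 0.00106 by DESeq2). Ankrd37 shares 259 bases with its neighbour Lrp2bp, which measured 0.595 to 1.16 CPM.

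Ddit4 (10:59949669-59951834, minus strand), also called REDD1, restrains mTORC1 through the Tsc complex and so lowers protein synthesis under stress. It measured 22.9, 16.1 and 23.3 CPM in controls and 61.8, 111 and 44.0 CPM in FlncgKO hearts. All FlncgKO libraries were above the controls, with FlncgKO replicate 2 at more than the sum of the 3 controls. The mean was 20.8 ± 4.04 CPM in controls and 72.2 ± 34.6 CPM in FlncgKO hearts (SD, n = 3 each), with a log2 fold change of 1.80 (SE 0.40, adjusted p = 0.0986 by edgeR's quasi-likelihood test, 0.00108 by DESeq2). DESeq2 called Ddit4 in each of 6 fits that left out a library.

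The other 18 genes of the mTOR list, which holds the kinase complexes, the Tsc complex, sestrins and translation regulators, had a median log2 fold change of -0.06, and 5 of them had a positive one. By edgeR's quasi-likelihood test none was called higher and 1 lower, and by DESeq2 2 were called higher and 1 lower. The gene called lower by edgeR was Sesn3, a sestrin that restrains mTORC1, with 68.8 to 80.4 CPM in controls and 48.4 to 56.9 CPM in FlncgKO hearts (log2 fold change -0.54, adjusted p = 0.0392 by edgeR's quasi-likelihood test). Eif4ebp1, a translation repressor, gave a log2 fold change of 0.58 (adjusted p = 0.0501 by edgeR's quasi-likelihood test, 3.5e-05 by DESeq2). Sesn2, another sestrin, had one of 1.24 (adjusted p = 0.112 by edgeR's quasi-likelihood test, 0.00024 by DESeq2), the same sign as Ddit4 and the opposite of Sesn3.

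Ddit4, Sesn2 and other stress genes are also reached through the integrated stress response, and the tested genes of that response were read beside them. Of 12 tested, none was called by edgeR's quasi-likelihood test. By DESeq2 9 were higher, against 6.22% of all genes, and 10 had no overlap between groups, all higher, against 15.7%. Their median log2 fold change was 0.95. Chac1, which degrades glutathione, measured 0.183 to 0.387 CPM in controls and 4.96, 13.9 and 2.50 CPM in FlncgKO hearts (log2 fold change 4.62, adjusted p = 0.0622 by edgeR's quasi-likelihood test, 5.8e-10 by DESeq2). Atf4, the central transcription factor of the response, gave a log2 fold change of 0.60 (adjusted p = 0.0631 by edgeR's quasi-likelihood test, 3.3e-05 by DESeq2). Ddit4 is also a target of p53 and of glucocorticoids. Of 10 p53 targets and 6 glucocorticoid targets tested none was called by edgeR's quasi-likelihood test, while DESeq2 called 1 higher in each list, Cdkn1a and Per1. The median log2 fold changes were 0.15 and 0.31. Those with the smallest p by edgeR's quasi-likelihood test were Cdkn1a and Mdm2 among p53 targets, with log2 fold changes of 0.68 and 0.14, and Per1 and Tsc22d3 among glucocorticoid targets, with 0.46 and 0.18.

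Bnip3 and Bnip3l are paralogues in the outer mitochondrial membrane that bind autophagosome proteins and so mark mitochondria for removal. Bnip3 (7:138890836-138909519, minus strand) measured 197, 184 and 224 CPM in controls and 461, 642 and 315 CPM in FlncgKO hearts. All FlncgKO libraries were above all controls. The mean was 202 ± 20.6 CPM in controls and 473 ± 164 CPM in FlncgKO hearts (SD, n = 3 each), with a log2 fold change of 1.23 (SE 0.28, adjusted p = 0.0972 by edgeR's quasi-likelihood test, 0.00167 by DESeq2).

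Bnip3 shares 858 bases at 98.3% identity with AC160336.1, a long noncoding gene that measured 44.3, 35.6 and 74.6 CPM in controls and 44.0, 38.2 and 71.8 CPM in FlncgKO hearts, so some reads of either gene could have been assigned to the other. The groups overlapped for the noncoding gene, and with the near copies added to Bnip3 the log2 fold change was 1.05 (adjusted p = 0.0956 by edgeR's quasi-likelihood test).

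Bnip3l (14:66985239-67008877, minus strand), also called Nix, is known for clearing mitochondria from maturing red cells. It measured 196, 197 and 232 CPM in controls and 329, 389 and 269 CPM in FlncgKO hearts. The groups were separated, with a smaller change than that of Bnip3 but also a smaller spread. The log2 fold change was 0.66 (SE 0.14, adjusted p = 0.0811 by edgeR's quasi-likelihood test, 4.5e-05 by DESeq2), and with the erythroid level as a covariate it was 0.62 (adjusted p = 0.312 by edgeR's quasi-likelihood test).

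Per length, Bnip3 was above Bnip3l in every library, with TPM ratios of 1.67, 1.64 and 1.495 in controls and 2.11, 2.49 and 1.79 in FlncgKO hearts. The groups did not overlap, and the log2 TPM ratio was 0.40 higher in FlncgKO hearts (exact two-sided permutation p = 0.1, the smallest that 3 against 3 libraries allow). In CPM the difference between groups was 0.52 on the log2 scale, with the same p in the exact permutation test. Of the other 23 tested genes of mitophagy and autophagy, none was called by edgeR's quasi-likelihood test and 1 was higher by DESeq2, with a median log2 fold change of 0.08. Bcl2l1, an anti-apoptotic protein of the outer mitochondrial membrane, gave a log2 fold change of 0.33 (adjusted p = 0.0960 by edgeR's quasi-likelihood test, 0.0452 by DESeq2). The autophagosome gene Atg5 had one of -0.29 (adjusted p = 0.0976 by the same edgeR test, 0.0831 by DESeq2).

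Higd1a (9:121848563-121858362, minus strand) is a small protein of the inner mitochondrial membrane that binds cytochrome c oxidase. It measured 81.5, 81.2 and 89.2 CPM in controls and 142, 171 and 105 CPM in FlncgKO hearts. The controls agreed closely and all FlncgKO libraries were above them. The log2 fold change was 0.73 (SE 0.17, adjusted p = 0.0900 by edgeR's quasi-likelihood test, 0.000141 by DESeq2). An antisense gene, Gm47112, shares 683 bases with Higd1a and measured 0.0966 to 0.309 CPM.

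In the list of Higd1a relatives and cytochrome c oxidase subunits that switch with oxygen, 1 of 5 tested genes was called higher, by edgeR's quasi-likelihood test and by DESeq2 alike. This was Cox4i2, the subunit form used in low oxygen, with 4.87 to 6.62 CPM in controls and 14.0, 24.9 and 14.8 CPM in FlncgKO hearts (log2 fold change 1.67, adjusted p = 0.0411 by edgeR's quasi-likelihood test). Its groups did not overlap. Higd2a, the paralogue of Higd1a, had a log2 fold change of -0.03, and the subunit Cox7a2 one of -0.05.

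Ero1l (14:45283087-45318771, minus strand, Ero1a in RefSeq) is the oxidase of the endoplasmic reticulum that recharges protein disulfide isomerase with oxygen as the acceptor. It measured 112, 113 and 121 CPM in controls and 248, 368 and 179 CPM in FlncgKO hearts. The controls lay within a narrow range, and the lowest FlncgKO library was above all of them. The mean was 115 ± 4.94 CPM in controls and 265 ± 95.4 CPM in FlncgKO hearts (SD, n = 3 each), with a log2 fold change of 1.20 (SE 0.27, adjusted p = 0.0960 by edgeR's quasi-likelihood test, 0.00230 by DESeq2).

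Of 10 tested partners of oxidative folding 1 was called higher by edgeR's quasi-likelihood test and 1 by DESeq2, with a median log2 fold change of 0.03. The called gene was P4hb, the disulfide isomerase that Ero1l recharges, with 591 to 621 CPM in controls and 764 to 806 CPM in FlncgKO hearts (log2 fold change 0.39, adjusted p = 0.0310 by edgeR's quasi-likelihood test). P4hb is also a subunit of the collagen prolyl hydroxylases. Prdx4 and Txndc5, a peroxiredoxin and a thioredoxin-like protein of the same compartment, showed log2 fold changes of 0.21 and 0.18, with 0.110 and 0.132 as adjusted p by edgeR's quasi-likelihood test.

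**Figure D2:**
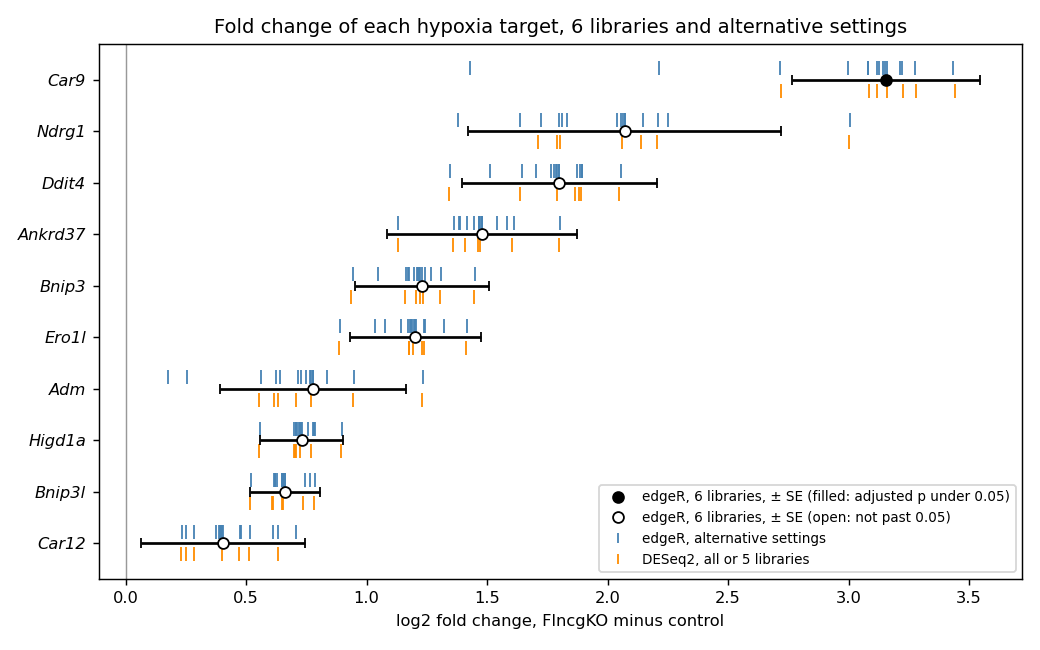
Log2 fold change (FlncgKO minus control) of each hypoxia target by edgeR's quasi-likelihood test with its SE (circles, filled where the adjusted p is under 0.05), with the values under other edgeR settings (blue ticks) and DESeq2 fits (orange ticks). Every value is above 0, Car9 has the filled circle, and Car9, Ndrg1 and Adm have the widest ranges.

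Per length, the order of the levels in controls was Bnip3 with 297 ± 28.8 TPM, Bnip3l with 187 ± 28.2, Higd1a with 134 ± 7.42, Ero1l with 68.6 ± 3.08, Adm with 40.0 ± 19.1, Ddit4 with 21.5 ± 4.10, Ankrd37 with 15.3 ± 3.32, Ndrg1 with 5.29 ± 3.08, Car9 with 0.866 ± 0.165 and Car12 with 0.342 ± 0.0910 TPM (mean ± SD, n = 3). This order held within every control library. Over the 3 control libraries the ranges of neighbours were separate, except those of Ddit4 (16.8 to 24.0 TPM) and Ankrd37 (11.8 to 18.4 TPM). In FlncgKO hearts Bnip3, Bnip3l and Higd1a still led, with 699 ± 246, 322 ± 63.0 and 234 ± 64.0 TPM. The ranges of Bnip3l and Higd1a then overlapped, though Bnip3l was the higher within each FlncgKO library. Ddit4 stood above Adm by mean, with 74.9 ± 37.9 and 67.4 ± 16.7 TPM, but not within every library. Car9 remained among the lowest members, with 6.99 ± 3.53 TPM, so the member with the largest fold change was 1 of the 2 least abundant.

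The FlncgKO libraries shared an order. Replicate 2 was the highest of all libraries for 8 of the 10 genes and replicate 3 the lowest FlncgKO library for 6, while control replicate 3 was the highest control for 9. The median over the 10 genes of the log2 CPM minus the control mean was -0.04, -0.10 and 0.17 in controls and 1.15, 1.67 and 0.64 in FlncgKO hearts. The platelet markers took another order, with 5.52, 4.78 and 3.03, and the erythroid markers yet another, with 0.92, 0.73 and 1.37 in FlncgKO replicates 1, 2 and 3. The leukocyte markers stood at 2.11, 1.65 and 1.59. The part of these cells in the levels of the 10 genes was not tested beyond the erythroid covariate. FlncgKO replicate 3 also kept the most Flnc RNA of its group.

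Without FlncgKO replicate 3, edgeR's quasi-likelihood test called 6 of the 10 members higher, against 6.05% of all genes higher and 1.73% lower. They were Car9 (adjusted p = 0.00837), Ankrd37 (0.00165), Bnip3 (0.0125), Bnip3l (0.00778), Higd1a (0.00150) and Ero1l (0.0187). Ddit4 stood at 0.0502, Ndrg1 at 0.244 and Adm at 0.509, and all 10 kept a positive log2 fold change. The number of genes called in the whole table moved as well, from 170 to 989 higher.

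Pairs of members differed in how closely their profiles over the 6 libraries lay, measured as the Euclidean distance between log2 CPM values minus the control mean. The closest pairs were Bnip3 and Ero1l at 0.159 and Bnip3l and Higd1a at 0.183, and the next was Ankrd37 and Bnip3 at 0.546. The genes of each of these pairs lie on different chromosomes. A small distance implies similar fold changes by the way it is measured, and the distances are a description over 6 libraries. Nearest to Car9 among all tested genes with a mean of at least 1 CPM were Dlx3 at 0.440, Slc7a3 at 0.536 and Cyp2s1 at 0.621. Dlx3, a homeobox factor of surface ectoderm and placenta, measured 0.183 to 0.242 CPM in controls and 1.39, 4.10 and 2.92 CPM in FlncgKO hearts (log2 fold change 3.63, adjusted p = 0.0324 by edgeR's quasi-likelihood test). Dlx3 stands on the list of 8 surface epithelium markers, of which 6 were tested and 1, Dlx3 itself, was called. That list summed to 129 to 280 CPM in controls and 247 to 516 CPM in FlncgKO hearts, with the highest sum in FlncgKO replicate 3, and its part in the level of Car9 was not tested.

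Transcript estimates were read for the members with more than 1 abundant transcript. Bnip3 was carried by 1 coding transcript, ENSMUST00000106112, at 91.0% to 94.9% of the gene's TPM in every library. Bnip3l was carried by its coding transcript ENSMUST00000022634, with 117, 115 and 129 TPM in controls and 187, 223 and 154 TPM in FlncgKO hearts, and by the processed transcript ENSMUST00000138160, with 58.1, 46.7 and 75.1 TPM and then 113, 136 and 85.4 TPM. Both were higher in every FlncgKO library than in any control.

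Ero1l differed. Its coding transcript ENSMUST00000022378 (16 exons) measured 54.0, 52.1 and 54.6 TPM in controls and 117, 174 and 84.6 TPM in FlncgKO hearts, with no overlap. The short processed transcript ENSMUST00000228777 (2 exons) measured 12.9, 9.55 and 13.1 TPM in controls and 11.5, 10.9 and 9.11 TPM in FlncgKO hearts, and these ranges overlapped. Its share of the gene's TPM was 14.5% to 18.9% in controls and 5.62% to 9.20% in FlncgKO hearts. The short transcript rested on 27.5 to 42.7 estimated counts per library, and the difference between transcripts was not tested.

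In Higd1a the coding transcripts ENSMUST00000060251 and ENSMUST00000215300 carried similar shares and both were higher in every FlncgKO library, with 57.0 to 63.2 and 43.2 to 60.4 TPM in controls against 69.5 to 114 and 78.8 to 137 TPM. The coding transcript of Ankrd37, ENSMUST00000053558, measured 5.70 to 8.45 TPM in controls and 10.9 to 33.0 TPM in FlncgKO hearts, and retained-intron and decay forms made up much of the rest. The main coding transcript of Ndrg1 held 93.1%, 42.6% and 99.8% of the gene's TPM in controls and 94.0% to 98.1% in FlncgKO hearts, the low share being in the control with the fewest Ndrg1 counts. Ddit4 has 1 annotated transcript, and no transcript of Car12 reached a mean of 1 TPM.

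**Figure D3:**
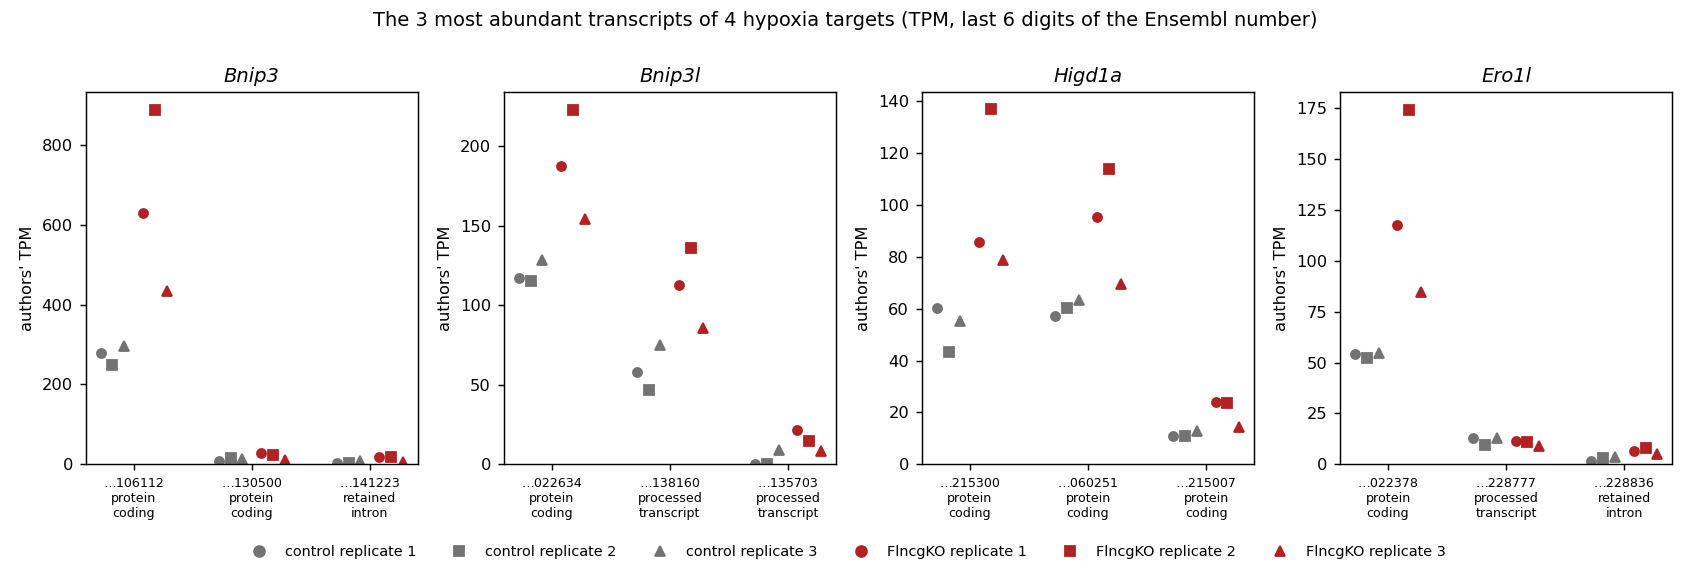
The 3 most abundant transcripts of Bnip3, Bnip3l, Higd1a and Ero1l in the authors' TPM (linear axes starting at 0), each point being 1 library, control in grey and FlncgKO in red. The coding transcript of Ero1l is higher in all FlncgKO libraries (84.6 to 174 against 52.1 to 54.6 TPM), while its short processed transcript overlaps between groups (9.11 to 11.5 against 9.55 to 13.1 TPM).

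Read beside the other arms of the pathway, the 10 genes had the larger median change. Of 22 glycolytic targets, all tested, 2 were called higher by edgeR's quasi-likelihood test, 14 by DESeq2 and none lower by either, with a median log2 fold change of 0.37. These were Slc2a3, a high-affinity glucose transporter (219, 193 and 241 CPM in controls, 843, 1189 and 757 CPM in FlncgKO hearts, log2 fold change 2.09, adjusted p = 0.0310 by edgeR's quasi-likelihood test), and the aldolase Aldoc (log2 fold change 1.28, adjusted p = 0.0420 by the same edgeR test). The abundant enzymes Pkm and Pgk1 showed log2 fold changes of 0.35 and 0.47. They did not pass by edgeR's quasi-likelihood test (adjusted p = 0.0763 and 0.0780) but did by DESeq2 (adjusted p = 0.0014 and 0.00055). The difference between the lists was not tested.

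Of 36 tested other hypoxia targets, 5 were called higher by edgeR's quasi-likelihood test, 27 by DESeq2 and none lower by either, with a median log2 fold change of 0.77. Edn1, the vasoconstrictor endothelin, measured 6.76 to 9.99 CPM in controls and 40.0 to 50.6 CPM in FlncgKO hearts (log2 fold change 2.43, adjusted p = 0.0128 by edgeR's quasi-likelihood test). The transferrin receptor gene Tfrc gave a log2 fold change of 0.44 (adjusted p = 0.0310), and the collagen-modifying enzymes P4ha2, P4ha1 and Plod1 had 1.71, 0.93 and 0.46 (adjusted p = 0.0372, 0.0411 and 0.0392, all by edgeR's quasi-likelihood test). Nearest to a call were Igfbp3, with a log2 fold change of 2.18 (adjusted p = 0.0501), and Gbe1, with 0.46 (adjusted p = 0.0512, both by edgeR's quasi-likelihood test). DESeq2 called both (adjusted p = 2.7e-18 and 0.0023).

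The HIF subunits and their regulators were not called by edgeR's quasi-likelihood test (0 of 10), while DESeq2 called 3 higher and 1 lower. The median log2 fold change was 0.21, but the genes moved in both directions. The groups did not overlap for 4 of the 10 higher and 4 lower, against 15.7% and 14.1% of all tested genes. HIF alpha subunits are governed mainly at the protein level, which these data do not measure. Egln3, an oxygen-sensing hydroxylase that is itself a HIF target, measured 8.004, 8.11 and 10.3 CPM in controls and 56.6, 78.7 and 30.2 CPM in FlncgKO hearts (log2 fold change 2.65, adjusted p = 0.0578 by edgeR's quasi-likelihood test, 3.6e-08 by DESeq2). Its FlncgKO libraries stood in the order seen in most members, with replicate 2 highest and replicate 3 lowest. Hif3a, an alpha subunit with repressive forms, gave a log2 fold change of 0.59 (adjusted p = 0.0563 by edgeR's quasi-likelihood test, 0.00084 by DESeq2).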

How the data were processed

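Embryonic hearts (3 control and 3 FlncgKO libraries) were profiled by strand-specific RNA-seq of polyadenylated RNA. The authors deposited, per library, salmon estimates for 140658 transcripts (GENCODE M22, GRCm38.p6), namely estimated counts without normalization and TPM. The salmon version is not given in the sources used here, and the authors tested with DESeq2 1.22.2.

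Deposited estimated counts were summed per gene through GENCODE M21 (0.370% of transcripts, with 0.108% to 0.131% of counts, had no gene there and were left out) and rounded. In R 4.3.3, edgeR 4.0.16 filtered genes (filterByExpr, at least 10 counts), scaled libraries by TMM and applied its robust quasi-likelihood test. P-values of the 16048 genes kept were adjusted by Benjamini-Hochberg, at a threshold of 0.05. DESeq2 1.42.0 was an alternative. Scripts were tested on simulated data. Profiles used log2 of CPM plus 0.1. Near copies were sought with blastn 2.17.0.

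The 10 genes, the companion lists and the tests were chosen with earlier results of these data known. Genes named are the 10 members, Flnc, the called genes of each companion list (at most 5), its 2 uncalled genes of smallest p, transcripts of members with a mean of at least 1 TPM, and the 3 genes nearest to each called member in profile. Xist was read beside the Y-linked genes. Gene coordinates come from GENCODE M21 on GRCm38, and windows before gene starts from RefSeq on GRCm38.p6.

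Alternatives were RLE scaling, total counts, no filter, at least 10 counts in all libraries, length offsets, a replicate block, covariates from Y-linked or erythroid genes, DESeq2, and leaving out each library. Adding near copies to the members was chosen after seeing the data. Replicates of a group differed by more than sampling noise (chi-square per degree of freedom of 7.85 to 31.9), so no library was counted as a repeat. The study speaks of littermates but no source says that equal numbers share a litter, and the tests did not pair libraries.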

Additional observations from a re-analysis of the deposited data

How the results depend on the processing

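All 10 members kept a positive log2 fold change in 22 of 22 settings. The number called higher, 1 in the fit of all 6 libraries by edgeR's quasi-likelihood test, was 0 with the Y-linked covariate, 0 with the erythroid covariate, 0 with near copies added (an alternative chosen after seeing the data) and 8 with DESeq2. Leaving out 1 library it ran from 0 to 6 by edgeR and from 4 to 9 by DESeq2, and in none of these settings was a member called lower. The covariates each use a degree of freedom, leaving 3 for the spread, and over all genes they left 0 and 1 genes higher and 0 and 0 lower. Beyond that, the cause of these differences was not tested.

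Over all genes, 170 were called higher and 40 lower. With no filter on low counts these were 392 and 162, with offsets for transcript length 63 and 13, with DESeq2 988 and 361, and with 10 counts in every library 62 were lower. Leaving out 1 library gave 1 to 989 higher and 0 to 283 lower by edgeR, and 520 to 1292 higher and 114 to 513 lower by DESeq2. By edgeR the lowest counts, 1 higher and 0 lower, came from the fits without control replicate 1 or 2.

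With the replicate number as a block, 512 genes were called higher and 120 lower, and 1 member was called, Car9 (log2 fold change 3.08, adjusted p = 0.00862 by edgeR's quasi-likelihood test). Equal numbers had correlated deviations of 0.0440, 0.571 and 0.606. Control replicates 2 and 3 correlated best with the FlncgKO library of the same number, and control replicate 1 with FlncgKO replicate 2 (0.195). These values do not settle whether equal numbers share a litter. The numbers were not taken as pairs because no source says so.

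Of 1054 values for 48 named genes under alternatives, 792 kept their direction and side of the threshold, 75 lost a call, 186 gained one and 1 reversed, Higd2a without control replicate 1, at 0.0027 on the log2 scale (range without 1 library -0.057 to 0.0027). Low counts limit Car9 in controls (13 to 16) and Car12 throughout (11 to 25).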
